A study of Mus musculus with 12 samples.

Results

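The 10 genes described here make NAD from its precursors (Nmrk1, Nmrk2, Nampt, Naprt, Nmnat1, Nmnat2 and Nmnat3), phosphorylate it to NADP (Nadk and Nadk2) or reduce NADP with electrons from NADH (Nnt). They were taken by gene symbol as the rows of the deposited expression table that carry these names, 10 of 24775 genes, and all 10 passed the filter on low values that left 21173 genes for testing. The hearts came from wild-type C57BL/6 mice, and 12 libraries of total RNA were sequenced in 4 groups of 3. The groups were AAV9-PRODH mice after transverse aortic constriction (PRODH TAC), AAV9-Vector mice after the same operation (vector TAC), AAV9-PRODH mice after sham surgery (PRODH sham) and AAV9-Vector mice after sham surgery (vector sham). AAV9 is an adeno-associated virus that reaches heart muscle, so every mouse, controls included, carried a virus. PRODH is proline dehydrogenase, a mitochondrial enzyme that starts proline breakdown. TAC narrows the aorta and puts the heart under pressure overload. Surgery was done 3 weeks after the injection and the tissue was taken 4 weeks after surgery. The design text describes the overexpression as restricted to the heart, while the promoter in the virus and the age, sex and substrain of the mice are not stated in the labels.

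NAD accepts electrons in fuel oxidation and is also consumed by sirtuins, PARP enzymes and glycohydrolases, so cells keep remaking it. In most tissues NAMPT recycles the nicotinamide that these consumers release, while the riboside kinases NMRK1 and NMRK2 and the nicotinate enzyme NAPRT open separate entries. The entries by way of NAMPT and the kinases meet at nicotinamide mononucleotide, which the NMNAT enzymes turn into NAD, and the NMNAT enzymes also act on the NAPRT product. NAD kinases then make NADP, whose reduced form NADPH serves biosynthesis and the defence against oxidants, and mitochondrial NADPH made from the product of NADK2 is used in proline synthesis.

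The libraries held 10.13 to 15.23 M recovered reads, and the deepest were vector TAC replicates 3 and 2. Prodh, the gene supplied by the virus, had 963.9 to 1319.9 normalized reads in PRODH TAC hearts, 159.6 to 245.4 in vector TAC hearts, 496.7 to 1072.1 in PRODH sham hearts and 291.6 to 379.3 in vector sham hearts. All 10 markers of ventricular muscle were detected in every group, none of them at 0. Of 10 skeletal muscle markers 9 are in the table, with summed levels of 17066.9 to 18600.8 normalized reads in PRODH TAC, 9807.7 to 18744.8 in vector TAC, 17624.9 to 24698.4 in PRODH sham and 15554.5 to 19421.0 in vector sham hearts. Ckm, muscle creatine kinase, which heart muscle also makes, gave 9779.4 to 24650.6 of these, and the other 8 markers stayed at or below 30.6 in every library. A pair of libraries stood apart from their groups. Vector TAC replicate 1 had the highest summed mesothelial and epicardial markers of its group (498.7 normalized reads, against 224.5 and 277.4 in replicates 2 and 3), the highest macrophage sum of all libraries (25333.3, against 9357.8 to 14858.1 elsewhere) and a red cell sum of 120145.0. PRODH sham replicate 2 had a mesothelial sum of 494.5, against 96.7 and 89.7 in the other PRODH sham libraries, and a red cell sum of 138440.9. The red cell sum of the other 10 libraries lay between 11237.1 and 55383.7. Where leaving out either library changed the call of a member, the value without it is given.

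In vector hearts, TAC was followed by more Nmrk2 RNA and less Nampt, Nmnat3 and Nadk2 RNA. In PRODH TAC hearts Nmrk2 was lower and Nadk2 higher than in vector TAC hearts. The difference of Nmrk2 was the widest of the members in both comparisons, with mean levels 6.3 times as high in vector TAC as in vector sham hearts and 0.32 times as high in PRODH TAC as in vector TAC hearts. Without TAC the PRODH and vector hearts showed no member past the test. Values below are normalized reads, that is, read counts divided by a size factor for each library, and differences are log2 differences of the value plus 1, with their standard error, from limma with Benjamini-Hochberg adjustment over all 21173 genes and 3 libraries per group. A member passed at an adjusted p under 0.05. Nothing in the labels says which libraries shared a day or batch.

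**Figure D1:**
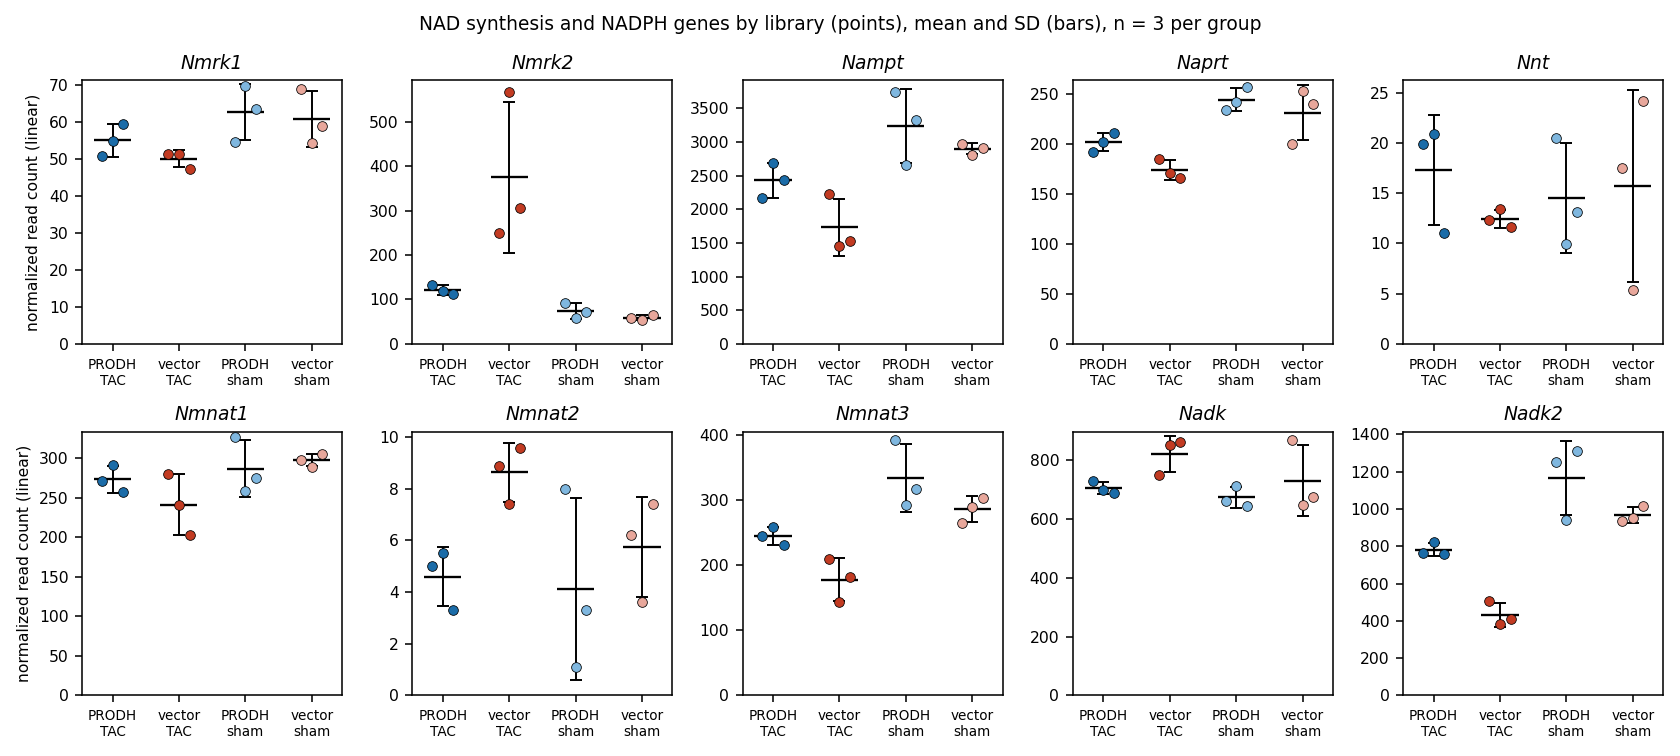
Normalized read counts (linear axes, which start at 0) of the 10 genes in the 12 libraries, with PRODH TAC, vector TAC, PRODH sham and vector sham from left to right. Points are libraries, and the mean with its SD is drawn for n = 3 per group. The 3 vector TAC libraries of Nmrk2, at 249.9 to 567.2, stood above all others, and those of Nadk2, at 382.8 to 505.3, stood below all others.

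Per kilobase of exon, the only scale on which the genes can be set against each other, the members covered a wide span. Nampt was the highest at 510.0 normalized reads per kilobase over the 12 libraries, a level that 94.9% of tested genes did not exceed. Nadk (195.0) and Nadk2 (164.0) came next, and their ranges over libraries overlapped. That of Nadk2, 74.8 to 256.0, also reached the next genes. Naprt (90.8), Nmnat1 (90.6) and Nmrk2 (84.8) followed with overlapping ranges, then Nmnat3 (52.1), whose range of 28.5 to 78.4 overlapped with each of theirs. Nmrk1 (15.5) stood apart, with 12.8 to 18.8. Nnt (2.13) and Nmnat2 (0.997) were the lowest and overlapped. The order depended on the group for Nmrk2, which averaged 202.0 per kilobase in vector TAC hearts and 32.0 in vector sham hearts. In vector TAC hearts Nmrk2 thus lay beside Nadk (219.0 per kilobase), and in vector sham hearts it lay between Nmnat3 (57.1) and Nmrk1 (16.5).

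The upstream regions of Nmrk2, Nampt and Nmnat3 are shown because these genes changed after TAC in vector hearts and have an entry in the RefSeq promoter table of build GRCm38.p6. That table holds 9 promoters of 7 of the 10 members, and Naprt, Nadk2 and Nnt are not shown. Each line gives the 250 bases before the annotated start, 5′ to 3′ on the strand of the gene. They lie at chr10:81202038-81202287 on the minus strand for Nmrk2, at chr12:32820085-32820334 on the plus strand for Nampt and at chr9:98296320-98296569 on the plus strand for Nmnat3. Capitals mark matches on either strand to the GC box, spelled GGGCGG, and to the TATA box, spelled TATAAA.
Nmrk2: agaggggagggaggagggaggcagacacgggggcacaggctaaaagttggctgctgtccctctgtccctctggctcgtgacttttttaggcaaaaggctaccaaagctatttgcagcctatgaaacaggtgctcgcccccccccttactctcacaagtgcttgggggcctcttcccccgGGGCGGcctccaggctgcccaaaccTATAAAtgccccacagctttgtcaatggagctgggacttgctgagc
Nampt: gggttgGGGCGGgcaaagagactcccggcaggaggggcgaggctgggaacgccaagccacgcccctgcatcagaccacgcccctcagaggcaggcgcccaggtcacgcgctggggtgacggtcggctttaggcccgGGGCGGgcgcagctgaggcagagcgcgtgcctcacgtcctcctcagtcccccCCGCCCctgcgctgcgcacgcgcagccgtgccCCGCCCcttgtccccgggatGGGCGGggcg
Nmnat3: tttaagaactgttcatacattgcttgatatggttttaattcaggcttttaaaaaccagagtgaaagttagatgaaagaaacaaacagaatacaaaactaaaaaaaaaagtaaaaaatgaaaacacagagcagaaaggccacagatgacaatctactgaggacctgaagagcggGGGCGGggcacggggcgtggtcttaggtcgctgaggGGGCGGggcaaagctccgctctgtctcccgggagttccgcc
The 3 regions differ in base composition, with a GC content of 58.8% for Nmrk2, 75.6% for Nampt and 45.6% for Nmnat3. The Nampt region holds 5 GC boxes, the Nmnat3 region 2 and the Nmrk2 region 1, and 32.7% of the 32851 promoters in the table hold at least 1 in a window of this length. Nmrk2 is the only one of the 9 member promoters with the TATA letters, which lie 46 to 41 bases before the start and occur in 12.4% of all promoters. The TATA letters were added to the search after the Nmrk2 sequence was seen. An E-box (CACGTG, in 6.02% of promoters) was found in 1 of the Nadk promoters, and the letters CATTCC (M-CAT, 12.6%), TGACTCA (AP-1, 4.46%) and TCAAGGTCA (ERR element, 0.387%) and the CArG box (1.47%) were found in none of the 9. No 2 matches overlap in the regions shown. These matches describe letters in a window and are not measured binding sites.

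The riboside kinases phosphorylate nicotinamide riboside, NMRK1 in most tissues and NMRK2 mainly in striated muscle. Nmrk2 had 133.0, 118.6 and 112.0 normalized reads in PRODH TAC hearts, 249.9, 567.2 and 306.2 in vector TAC hearts, 92.2, 58.5 and 71.1 in PRODH sham hearts and 58.6, 53.4 and 66.2 in vector sham hearts. Every vector TAC library lay above every library of the other groups, and the lowest of them was replicate 1. All PRODH TAC libraries lay between the vector TAC and the PRODH sham libraries, without overlap. Nmrk2 rose by 2.55 ± 0.26 in vector TAC against vector sham hearts (95% interval 2.0 to 3.1, limma adjusted p = 4.78e-05). Against vector TAC hearts, PRODH TAC hearts had less, and Nmrk2 fell by 1.53 ± 0.26 on the log2 scale (interval -2.08 to -0.98, limma adjusted p = 0.00422). These calls share the vector TAC libraries, and both held when any single library was left out. The sum of 4 atrial muscle markers was highest in vector TAC hearts, as Nmrk2 was. It was 825.9, 1771.1 and 1624.8 normalized reads in PRODH TAC hearts and 5836.6, 22492.1 and 15200.6 in vector TAC hearts. In PRODH sham hearts it was 302.7, 476.8 and 596.2, and in vector sham hearts 471.0, 636.6 and 822.8. Most of the high vector TAC sums was Nppa, which stressed ventricles also make (268.5 to 22463.8 over the libraries). Myl7 and Sln stayed at or below 11 and Myl4 at or below 79.1, and none of them had its highest mean in vector TAC hearts. The mean of Myl4 was 41.9 in PRODH TAC, 29.8 in vector TAC, 35.5 in PRODH sham and 18.9 in vector sham hearts. The part of atrial tissue in the Nmrk2 difference was not tested.

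Nmrk1 stayed within a narrow band. Its group means were 54.9 ± 4.3 (SD, n = 3) in PRODH TAC, 50.0 ± 2.3 in vector TAC, 62.5 ± 7.5 in PRODH sham and 60.7 ± 7.5 normalized reads in vector sham hearts. The difference was -0.27 ± 0.21 in vector TAC against vector sham hearts (interval -0.71 to 0.17, limma adjusted p = 0.544) and 0.13 ± 0.21 in PRODH TAC against vector TAC hearts (limma adjusted p = 0.825), and neither passed. With 46 to 69 reads per library, counting error alone is wide for this gene.

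Part of the Nmrk2 gene is read on the other strand as well. In the GENCODE M21 annotation 270 of its 1854 exonic bases (14.6%), on chromosome 10, overlap exons of the antisense gene Atcayos. Whether the counting used strand is not given, and if it did not, reads of the shared bases can belong to either gene. Per kilobase Atcayos averaged 178.0 in PRODH TAC, 163.0 in vector TAC, 190.0 in PRODH sham and 147.0 normalized reads in vector sham hearts. In the same order Nmrk2 averaged 65.4, 202.0, 39.9 and 32.0, so its mean exceeded that of Atcayos only in vector TAC hearts. Atcayos had 777.5 ± 58.9 normalized reads in PRODH TAC, 712.2 ± 275.9 in vector TAC, 829.8 ± 44.8 in PRODH sham and 644.3 ± 94.1 in vector sham hearts (SD, n = 3). Its difference was 0.09 ± 0.2 in vector TAC against vector sham hearts and 0.19 ± 0.2 in PRODH TAC against vector TAC hearts (limma adjusted p = 0.872 and 0.719). The highest Atcayos value, 1029.7, fell in vector TAC replicate 1. The part of Atcayos reads in the Nmrk2 levels and shares was not tested.

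Nampt encodes the rate-limiting enzyme of NAD salvage from nicotinamide. It had 2162.1, 2688.0 and 2440.4 normalized reads in PRODH TAC hearts, 2220.0, 1456.2 and 1525.4 in vector TAC hearts, 3741.3, 2653.5 and 3327.9 in PRODH sham hearts and 2975.1, 2811.6 and 2910.7 in vector sham hearts. The vector TAC libraries lay below all vector sham libraries, and vector TAC replicate 1 lay within the PRODH TAC range. Nampt fell by 0.77 ± 0.17 on the log2 scale in vector TAC against vector sham hearts (interval -1.12 to -0.41, limma adjusted p = 0.0101). Between PRODH TAC and vector TAC hearts the Nampt difference of 0.51 ± 0.17 (interval 0.15 to 0.86) did not pass (limma adjusted p = 0.114). Vector TAC replicate 1 decided that call. Without it the difference was 0.7 and passed (limma adjusted p = 0.00228, with 0.000635 to 0.384 over all alternatives tried).

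Median sums of ventricular muscle markers fell in the order PRODH sham, vector sham, PRODH TAC and vector TAC hearts. The means of Nampt, Nmrk1, Nmnat3, Naprt and Nadk2 had the same order. Within the vector TAC group Nampt, Nmnat3 and Nadk2 ran with the marker sum. In the vector sham group Nampt did not, since replicate 1 had the most Nampt (2975.1) and the lowest marker sum (775945.3). The sum of the 10 markers, none of them at 0 in any group, ran from 718076.5 to 803819.5 normalized reads in PRODH TAC, 532991.1 to 727377.0 in vector TAC, 854012.2 to 957354.8 in PRODH sham and 775945.3 to 869407.5 in vector sham hearts. Vector TAC replicate 1 had the highest of the 3 vector TAC sums. The 10 fibroblast markers, also all detected, summed to 34178.3 to 41020.8 in PRODH TAC and 46709.7 to 77745.5 in vector TAC hearts. In PRODH sham hearts the sum was 35770.9 to 40314.7, and in vector sham hearts 38244.0 to 42081.8. Not all fibroblast markers went this way. Scara5 averaged 205.8 in vector TAC and 706.6 in vector sham hearts, and Gsn 21215.8 and 21810.8. In whole heart RNA, fewer cells of a type and less RNA per cell cannot be told apart, and the part of the cell mixture in the members' differences was not tested.

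Naprt, which starts the route from nicotinic acid, differed less. Its normalized reads were 192.6 to 210.8 in PRODH TAC, 165.8 to 185.2 in vector TAC, 234.4 to 257.1 in PRODH sham and 200.5 to 253.5 in vector sham hearts. The vector TAC libraries were the lowest of the 4 groups and did not overlap with any other group. The difference of -0.41 ± 0.13 in vector TAC against vector sham hearts did not pass with all libraries (limma adjusted p = 0.0852). It passed at -0.45 without vector TAC replicate 1 (limma adjusted p = 0.0341) and at -0.5 without vector sham replicate 1 (limma adjusted p = 0.0381), within 0.0341 to 0.273 over all alternatives. For PRODH TAC against vector TAC hearts the Naprt difference was 0.21 (limma adjusted p = 0.478). Of its 2344 exonic bases 277 (11.8%) are shared with Eef1d, a translation factor gene on the same strand, so some reads can belong to either gene. Per kilobase Eef1d averaged 308.0 in PRODH TAC, 291.0 in vector TAC, 371.0 in PRODH sham and 313.0 normalized reads in vector sham hearts. Naprt averaged 86.1, 74.2, 104.0 and 98.8 in the same order. The part of Eef1d reads in the Naprt values was not tested.

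The NMNAT genes encode the enzymes that complete NAD, NMNAT1 in the nucleus, NMNAT2 at the Golgi and in the cytosol, mainly of neurons, and NMNAT3 in mitochondria. Nmnat3 had 244.2, 258.0 and 230.5 normalized reads in PRODH TAC hearts, 209.7, 142.7 and 181.5 in vector TAC hearts, 392.6, 292.5 and 317.3 in PRODH sham hearts and 264.3, 289.8 and 303.7 in vector sham hearts. The vector TAC libraries lay below those of every other group, and the PRODH TAC libraries lay below those of both sham groups. Nmnat3 fell by 0.7 ± 0.16 on the log2 scale in vector TAC against vector sham hearts (interval -1.03 to -0.36, limma adjusted p = 0.0132). That call was lost at -0.55 without vector TAC replicate 2 (limma adjusted p = 0.0785), at -0.69 without vector sham replicate 2 (limma adjusted p = 0.0515) and at -0.65 without vector sham replicate 3 (limma adjusted p = 0.0543), and over all alternatives the p ran from 0.000933 to 0.0841. The call of Nampt in this comparison was likewise lost without vector TAC replicate 2, at -0.66 (limma adjusted p = 0.0611, with 2.1e-05 to 0.0636 over all alternatives). With the PRODH virus after TAC, Nmnat3 differed from vector TAC hearts by 0.47 ± 0.16 (interval 0.13 to 0.81) and did not pass (limma adjusted p = 0.122), whereas it passed at 0.6 without vector TAC replicate 1 (limma adjusted p = 0.0145, with 0.0122 to 0.432 over all alternatives).

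Nmnat1 averaged 273.7 ± 17.2 in PRODH TAC, 241.7 ± 38.3 in vector TAC, 287.2 ± 36.1 in PRODH sham and 297.9 ± 8.0 normalized reads in vector sham hearts (SD, n = 3). In vector TAC hearts all 3 libraries lay below the vector sham libraries, with a difference of -0.31 ± 0.14 that did not pass (limma adjusted p = 0.237). It passed at -0.42 without vector TAC replicate 1 (limma adjusted p = 0.0428, with 0.0381 to 0.562 over all alternatives). Nmnat2 was near the detection limit, with 1 to 14 reads per library. Its values were 3.3 to 5.5 in PRODH TAC, 7.4 to 9.6 in vector TAC, 1.1 to 8.0 in PRODH sham and 3.6 to 7.4 normalized reads in vector sham hearts, and its difference of 0.56 ± 0.53 in vector TAC against vector sham hearts (limma adjusted p = 0.644) was not distinguishable from 0 at this depth.

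The NAD kinases make NADP, NADK in the cytosol and NADK2 in mitochondria. Nadk2 had 764.4, 822.4 and 758.6 normalized reads in PRODH TAC hearts, 505.3, 382.8 and 411.7 in vector TAC hearts, 1249.4, 941.5 and 1310.6 in PRODH sham hearts and 935.8, 950.8 and 1014.0 in vector sham hearts. All vector TAC libraries were lowest, all PRODH TAC libraries lay above them, and both sham groups lay above these without overlap. Nadk2 fell by 1.17 ± 0.14 on the log2 scale in vector TAC against vector sham hearts (interval -1.46 to -0.87, limma adjusted p = 0.000137), to 0.45 times the vector sham mean. In PRODH TAC hearts it rose by 0.86 ± 0.14 relative to vector TAC hearts (interval 0.56 to 1.16, limma adjusted p = 0.00344), at 1.8 times the vector TAC mean. Both calls held when any single library was left out and in every other alternative tried, as did both of Nmrk2.

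Nadk, the cytosolic kinase, did not share this pattern of values. It had 728.6, 698.4 and 689.4 normalized reads in PRODH TAC hearts, 750.8, 851.9 and 861.7 in vector TAC hearts, 662.2, 713.0 and 644.4 in PRODH sham hearts and 869.0, 646.5 and 673.6 in vector sham hearts. The vector TAC and vector sham ranges overlapped through vector sham replicate 1, while every PRODH TAC library lay below every vector TAC library. Nadk differed by 0.18 ± 0.12 in vector TAC against vector sham hearts (limma adjusted p = 0.485) and by -0.22 ± 0.12 in PRODH TAC against vector TAC hearts (limma adjusted p = 0.431), neither past the test.

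Nnt, the transhydrogenase of the inner mitochondrial membrane that makes NADPH from NADH, was barely detected. It had 6 to 23 reads per library, or 11 to 20.9 normalized reads in PRODH TAC, 11.6 to 13.4 in vector TAC, 9.9 to 20.5 in PRODH sham and 5.4 to 24.2 in vector sham hearts. Per kilobase 24.7% of tested genes were at or below its level. The groups overlapped in vector TAC against vector sham hearts, where the difference was -0.1 ± 0.49 (interval -1.15 to 0.95, limma adjusted p = 0.95). In GENCODE M21, 3339 of its 7037 exonic bases (47.4%) on chromosome 13 are shared with a second gene entry of the same name, which had no row in the table used, so its count is uncertain. The C57BL/6J substrain is known to carry a deletion in Nnt, and the labels give the strain as C57BL/6 alone. The part of either in the low level was not tested.

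The balance between related members differed between the groups as well. Per kilobase, Nmrk2 made up 83.9%, 81.1% and 79% of the summed riboside kinase level in PRODH TAC hearts, 90.6%, 95.7% and 92.8% in vector TAC hearts, 77.1%, 62.6% and 69.0% in PRODH sham hearts and 62.9%, 66.2% and 69.1% in vector sham hearts. The vector TAC shares were the highest and did not overlap with the others, and the PRODH TAC shares lay above both sham groups. An added setting, chosen once the data had been seen, used recovered reads with no length correction, and its mean shares were 68.7% in PRODH TAC, 87.1% in vector TAC, 53.8% in PRODH sham and 49.5% in vector sham hearts, so the share depends on the length used while the order of the groups was the same. Relative to Nampt per kilobase, Nmrk2 stood at 16.8%, 12% and 12.5% in PRODH TAC hearts, 30.7%, 106.0% and 54.7% in vector TAC hearts, 6.72%, 6.01% and 5.82% in PRODH sham hearts and 5.37%, 5.18% and 6.2% in vector sham hearts. In vector TAC replicate 2 the levels of both genes were thus about equal, while in the sham hearts Nampt far exceeded Nmrk2.

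Between the NAD kinases, the mitochondrial Nadk2 made up 43.4%, 46.3% and 44.6% of the summed level per kilobase in PRODH TAC hearts, 33.0%, 24.8% and 25.9% in vector TAC hearts, 58.0%, 49.2% and 59.8% in PRODH sham hearts and 44.1%, 51.8% and 52.4% in vector sham hearts. The vector TAC shares lay below all others. The summed level of both kinases averaged 341.0 in PRODH TAC, 304.0 in vector TAC, 408.0 in PRODH sham and 384.0 normalized reads per kilobase in vector sham hearts, a narrower span than that of Nadk2 itself. Summed over the 3 NMNAT genes, the level was 132.0 to 149.0 in PRODH TAC, 105.0 to 136.0 in vector TAC, 144.0 to 188.0 in PRODH sham and 152.0 to 163.0 normalized reads per kilobase in vector sham hearts. There the PRODH TAC and vector TAC ranges overlapped through vector TAC replicate 1, at 136.0. Nmnat1 supplied most of this sum in every group, with mean shares of 64.5% in PRODH TAC, 68.2% in vector TAC, 58.5% in PRODH sham and 62.8% in vector sham hearts. These shares and sums are descriptions of the libraries. An exact permutation of 3 against 3 libraries was run on them, but it cannot go below p = 0.1 and so could pass none.

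**Figure D2:**
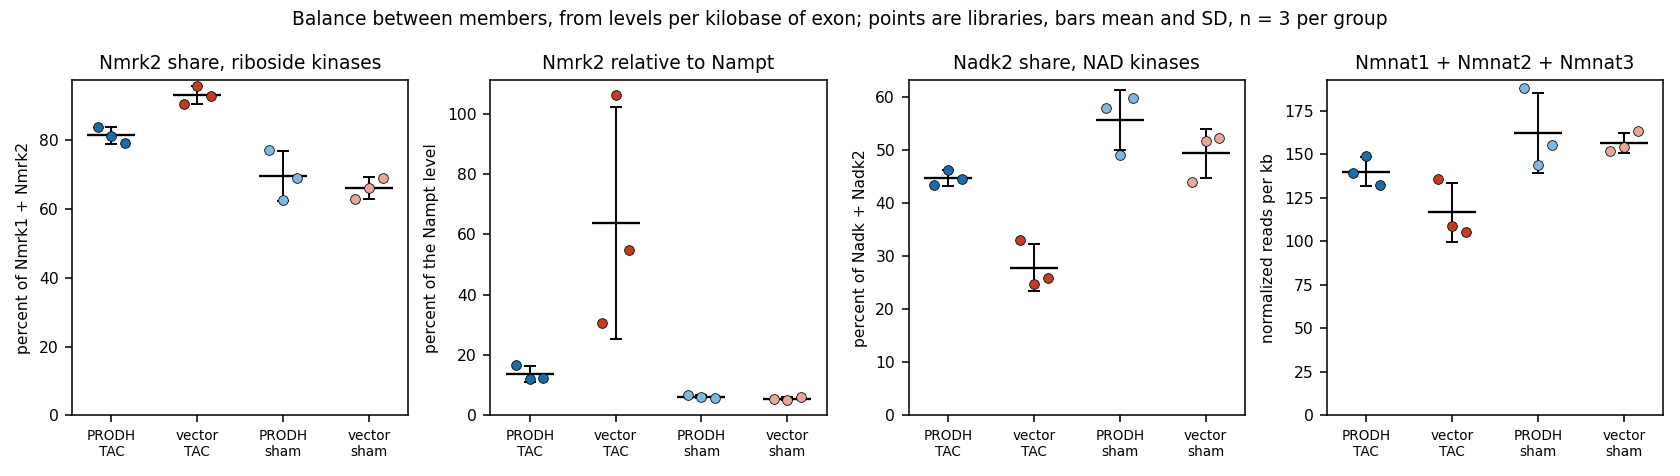
Nmrk2 share of the riboside kinases, Nmrk2 relative to Nampt and Nadk2 share of the NAD kinases (all in percent) and summed Nmnat level (normalized reads per kilobase of exon) in the 12 libraries, with PRODH TAC, vector TAC, PRODH sham and vector sham from left to right; points are libraries and bars the mean and SD, n = 3 per group. Vector TAC libraries have the highest Nmrk2 share of the riboside kinases (90.6% to 95.7%) and the lowest Nadk2 share of the NAD kinases (24.8% to 33.0%).

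Counted over the members, 1 of 10 rose and 3 fell in vector TAC against vector sham hearts, whereas 3.72% of all tested genes rose and 4.05% fell (7.77% in all). The median difference of the members was -0.29, against 0.018 over all genes tested. The groups did not overlap for 8 members, which leaves Nadk and Nnt, and for 20.2% of all tested genes. Between PRODH TAC and vector TAC hearts 1 of 10 rose and 1 fell, beside 2.12% and 1.8% of all genes (3.92% in all), with a median of 0.2 for the members and -0.005 for all genes. Here 6 members did not overlap, beside 20.6% of all genes. Nmnat3, Naprt and Nadk2 were higher in every PRODH TAC library, and Nmrk2, Nmnat2 and Nadk were lower. With vector TAC replicate 1 left out, 6 members passed in vector TAC against vector sham hearts and 4 in PRODH TAC against vector TAC hearts, where the shares of all genes called were 16.6% and 13.2%.

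Without pressure overload no member passed between PRODH and vector hearts. Prodh itself did not pass limma there, although its mean was 844.6 in PRODH sham and 335.0 normalized reads in vector sham hearts. A missing call in this comparison is thus not a missing difference. In PRODH sham against vector sham hearts 0 of 10 members and 0.0% of all genes passed limma, 0 members had an unadjusted p under 0.05 (4.1% of all genes did), and edgeR and DESeq2 each called 0 members (0.0% and 0.0331% of all genes). No member was free of overlap, against 11.2% of all genes. The intervals bound what could have been missed, from -0.26 to 0.84 for Nmrk2 (0.29 ± 0.26) and from -0.04 to 0.55 for Nadk2 (0.26 ± 0.14). A change the size of that after TAC in vector hearts lies outside both intervals.

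In PRODH TAC against PRODH sham hearts 0 of 10 members passed limma, as did 0.0236% of all genes. At an unadjusted p under 0.05 there were 4 members, against 8.56% of all genes, and they were the 4 called after TAC in vector hearts. Nmrk2 differed by 0.73 ± 0.26 (limma adjusted p = 0.455), Nampt by -0.41 ± 0.17 (0.549), Nmnat3 by -0.44 ± 0.16 (0.46) and Nadk2 by -0.56 ± 0.14 (0.219), each in the direction seen in vector hearts. Nmrk2, Nmnat3, Naprt and Nadk2 did not overlap between these groups, beside 21.8% of all genes. DESeq2 on the recovered reads called 1 member, Nadk2, at -0.58 (DESeq2 adjusted p = 0.0286) and 0.839% of all genes, and edgeR called 0 members and 0.052% of all genes. A limma fit of these 2 groups alone called Nmrk2 at 0.73 (adjusted p = 0.0469) and Nadk2 at -0.56 (adjusted p = 0.0126), with 5.35% of all genes. Without vector TAC replicate 1, which is in neither group but adds to the shared spread, limma called Nadk2 at -0.56 (adjusted p = 0.0251) and 1.42% of all genes. Without that library and PRODH sham replicate 2 it called Nadk2 at -0.71 (adjusted p = 0.00408) and Nampt at -0.54 (adjusted p = 0.0261), with 1.55% of all genes. Over all alternatives the adjusted p ran from 0.0469 to 0.858 for Nmrk2, from 0.0261 to 0.876 for Nampt and from 0.00408 to 0.831 for Nadk2.

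The response to TAC was then compared directly between PRODH and vector hearts. The difference of the responses was -1.82 ± 0.37 for Nmrk2 (interval -2.6 to -1.04, limma adjusted p = 0.0738) and 0.6 ± 0.2 for Nadk2 (limma adjusted p = 0.345), so 0 of 10 members passed, as did 0.104% of all genes. Both had an unadjusted p under 0.05, as did 8.59% of all genes. DESeq2 called Nmrk2 at -1.95 (DESeq2 adjusted p = 0.00148) with 1.24% of all genes, while edgeR called 0 members and 0.151% of all genes. Without vector TAC replicate 1 limma called both, Nmrk2 at -2.07 (adjusted p = 0.00226) and Nadk2 at 0.72 (adjusted p = 0.0409), with 1.98% of all genes. Over all alternatives the adjusted p ran from 0.00148 to 0.227 for Nmrk2 and from 0.0409 to 0.664 for Nadk2. With all libraries in the limma fit, the responses of neither gene were shown to differ between PRODH and vector hearts.

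**Figure D3:**
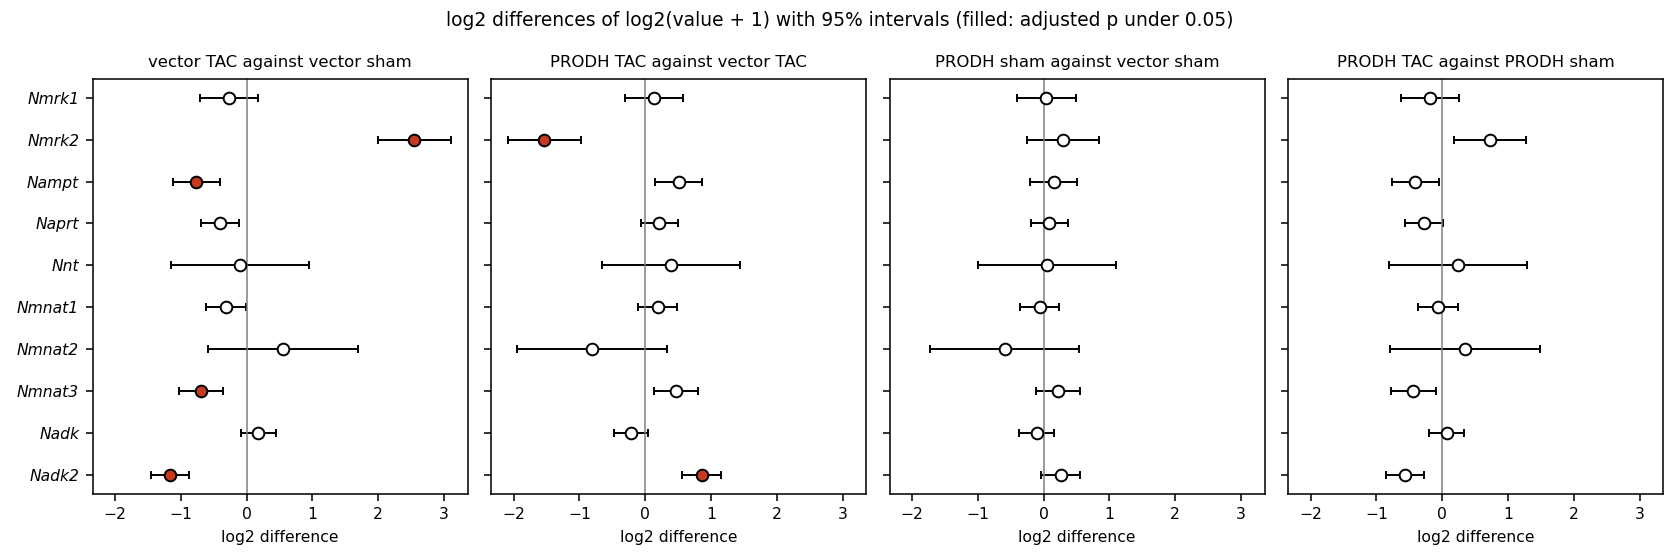
Differences of log2(value + 1) with 95% intervals for the 10 genes, 1 panel per comparison; filled points have a limma adjusted p under 0.05. Nmrk2 lies at 2.55 in vector TAC against vector sham and at -1.53 in PRODH TAC against vector TAC, Nadk2 lies at -1.17 and 0.86, and no point is filled in PRODH sham against vector sham or in PRODH TAC against PRODH sham.

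The members called in both comparisons of the series' aims were set beside the genes whose 12 values ran most like theirs, by the root mean square distance between centred log2 profiles. For Nadk2, whose own profile spread by 0.554 around its mean, the nearest were Hdac11, a histone deacetylase gene, at 0.088, Selenbp1, a selenium-binding protein gene, at 0.117, Entpd5, a nucleoside diphosphatase gene, at 0.12, Hhatl at 0.121 and Ogdhl, a relative of an oxoglutarate dehydrogenase subunit, at 0.132. Hdac11 averaged 189.4 normalized reads in PRODH TAC, 105.3 in vector TAC, 263.6 in PRODH sham and 231.7 in vector sham hearts, the same order as Nadk2. For Nmrk2, with a spread of 1.03, profiles among the nearest were farther off, at 0.347 for Aldh1a3 (a retinaldehyde dehydrogenase), 0.355 for Synpo2l (a sarcomere protein), 0.364 for Bgn (biglycan, a matrix proteoglycan) and 0.373 for Rab15 (a small GTPase). These 4 were highest in vector TAC hearts, as Nmrk2 was. Genes chosen for a like profile share such an order by the choice, and this holds for Hdac11 and Nadk2 as well.

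Other genes of NAD and NADPH metabolism, 79 in 10 lists of which 78 passed the filter (Kynu did not), were counted next. In vector TAC against vector sham hearts 4 rose and 7 fell, with a median of -0.01. Of all tested genes 3.72% rose and 4.05% fell there, with a median of 0.018. Between PRODH TAC and vector TAC hearts 1 rose and 2 fell, with a median of 0.08. Beside these, 2.12% of all tested genes rose and 1.8% fell, with a median of -0.005. None of the 9 tested genes that make NAD from tryptophan, the 7 sirtuins, the 15 PARP genes and the 3 NAD glycohydrolases passed limma in either comparison. At an unadjusted p under 0.05 there were 1, 1, 3 and 0 of them in vector TAC against vector sham hearts and 1, 1, 2 and 0 in PRODH TAC against vector TAC hearts, in the order of the lists named, beside 19.7% and 16.5% of all tested genes. In the first of these comparisons DESeq2 called 1 sirtuin gene and 2 PARP genes (14.2% of all genes) and edgeR 1 PARP gene (8.02%). Neither tool called any in the second, where they called 10.3% and 4.13% of all genes. Vector TAC replicate 1 weighed on these counts. Without it 5 of the 78 rose and 20 fell in vector TAC against vector sham hearts, beside 16.6% of all genes. Among these, 2 sirtuin genes and 1 PARP gene fell and 1 PARP gene rose. In PRODH TAC against vector TAC hearts 17 rose and 3 fell, beside 13.2% of all genes. Here 2 sirtuin genes and 1 PARP gene were among those that rose. Over the 78 genes DESeq2 with all libraries gave 5 and 15 in the first comparison and 8 and 3 in the second. A limma fit of only the 2 groups gave 2 and 1, then 0 and 1. All genes called made up 14.2% and 10.3% with DESeq2 and 3.45% and 2.03% in the fits of 2 groups. Limma called 0 of the 78 in PRODH sham against vector sham hearts, where 3 had an unadjusted p under 0.05 (4.1% of all genes did), and 0 in PRODH TAC against PRODH sham hearts, where 11 did (8.56% of all genes). DESeq2 called 0 and 1 there (0.0331% and 0.839% of all genes) and edgeR 0 and 0 (0.0% and 0.052%).

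Among NADPH users Nox4, an NADPH oxidase that makes hydrogen peroxide, had 27.8, 18.7 and 36.2 normalized reads in PRODH TAC hearts, 135.0, 240.1 and 183.6 in vector TAC hearts, 31.9, 13.2 and 6.6 in PRODH sham hearts and 30.9, 17.2 and 23.1 in vector sham hearts. Only the vector TAC libraries exceeded 100 normalized reads. Nox4 rose by 2.92 ± 0.45 in vector TAC against vector sham hearts (limma adjusted p = 0.000957) and fell by 2.72 ± 0.45 on the log2 scale in PRODH TAC against vector TAC hearts (limma adjusted p = 0.00381), and both calls held without any single library. Cyb5r3, a cytochrome b5 reductase on the same list that draws on NADH more than NADPH, rose by 0.47 ± 0.12 and fell by 0.5 ± 0.12 in these comparisons (limma adjusted p = 0.0226 and 0.0264). Its first call was lost without 4 single libraries, vector TAC replicates 2 and 3 and vector sham replicates 2 and 3, and its second without any 1 of the PRODH TAC libraries or without vector TAC replicate 2 or 3.

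Of 14 genes listed as NADPH producers, not all of whose enzymes make mainly NADPH, 1 rose and 2 fell in vector TAC against vector sham hearts. Of all tested genes 3.72% rose and 4.05% fell. The mitochondrial folate enzyme gene Mthfd2, whose enzyme uses mainly NAD, rose by 1.27 ± 0.24 (limma adjusted p = 0.00446). Me3, a mitochondrial malic enzyme gene, fell by 0.72 ± 0.13 (limma adjusted p = 0.00296), with a mean of 697.0 ± 115.6 in vector TAC and 1136.4 ± 62.9 normalized reads in vector sham hearts (SD, n = 3). Aldh1l2, which releases the folate carbon in mitochondria, fell by 1.44 ± 0.32 (limma adjusted p = 0.0101), a call lost at -1.1 without vector sham replicate 2. Limma called 0 of the 14 in PRODH TAC against vector TAC hearts (3.92% of all tested genes passed). There 5 had an unadjusted p under 0.05 (16.5% of all tested genes did). DESeq2 called 2 and edgeR 0, beside 10.3% and 4.13% of all genes. Me3 just missed there at 0.49 ± 0.13 (limma adjusted p = 0.0505). It passed at 0.62 without vector TAC replicate 1 (limma adjusted p = 0.0014). It also passed at 0.49 without PRODH sham replicate 2 or vector sham replicate 1 (limma adjusted p = 0.0482 each). In PRODH TAC against PRODH sham hearts, Me3 passed at -0.47 and Mthfd2 at 1.11 without vector TAC replicate 1.

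For the 9 genes of the shuttles that carry NADH electrons into mitochondria, the median was -0.54 in vector TAC against vector sham hearts. Of them 3 fell there, beside 4.05% of all tested genes. In PRODH TAC against vector TAC hearts the median was 0.41 and 1 rose, beside 2.12% of all tested genes. Slc25a12, which exchanges aspartate for glutamate across the inner mitochondrial membrane, fell by 0.68 ± 0.13 and rose by 0.49 ± 0.13 in these comparisons (limma adjusted p = 0.00431 and 0.0479), and the second call was lost without most single libraries. Got1, cytosolic aspartate aminotransferase, fell by 0.78 ± 0.17 and Gpd2, mitochondrial glycerol phosphate dehydrogenase, by 0.75 ± 0.18 (limma adjusted p = 0.00917 and 0.018), calls that were each lost without 1 library, vector TAC replicate 2 for Got1 and vector sham replicate 2 for Gpd2. Without vector TAC replicate 1 all 9 passed as lower in the first comparison and 7 as higher in the second, where 16.6% and 13.2% of all tested genes passed.

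Of the remaining lists, Nnmt, which methylates nicotinamide and so removes it from salvage, rose by 1.14 ± 0.26 in vector TAC against vector sham hearts (limma adjusted p = 0.0144). Nt5e, an ecto-enzyme that cleaves nicotinamide mononucleotide and AMP outside the cell, fell by 0.79 ± 0.16 (limma adjusted p = 0.00765), and Nudt12, which hydrolyses NADH, fell by 0.56 ± 0.14 (limma adjusted p = 0.0238). The call of Nnmt did not pass when vector sham replicate 2 or 3 was left out, nor that of Nudt12 without vector TAC replicate 2 or 3 or any 1 of the vector sham libraries. The call of Nt5e held without any single library.

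**Figure D4:**
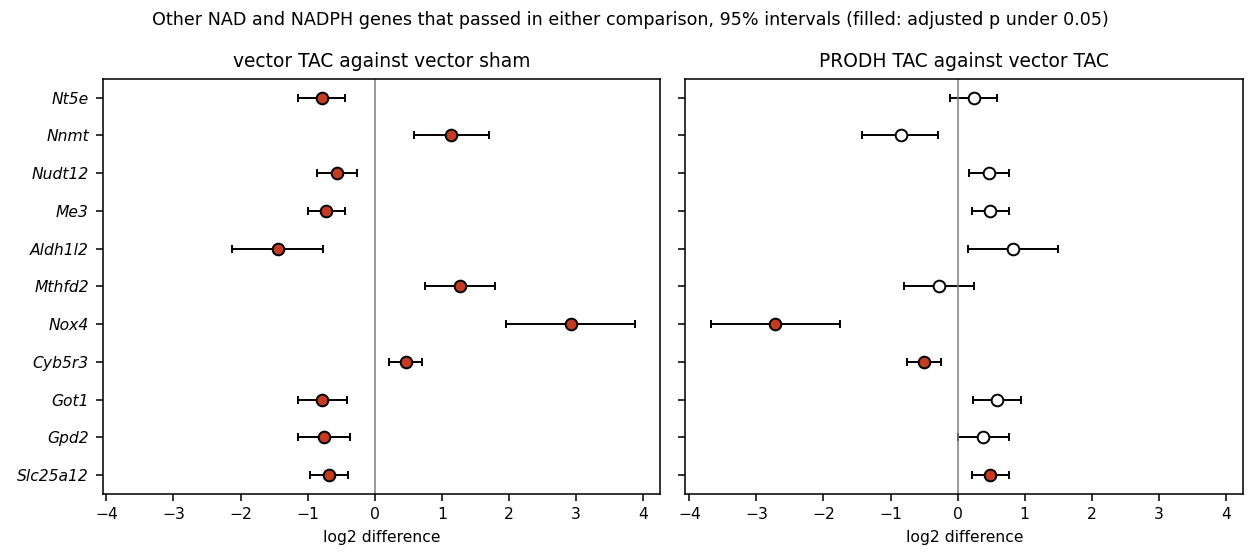
Differences of log2(value + 1) with 95% intervals for the other NAD and NADPH genes that passed in PRODH TAC against vector TAC or in vector TAC against vector sham, 3 libraries per group; filled points have a limma adjusted p under 0.05. Nox4 shows the widest differences, 2.92 in vector TAC against vector sham and -2.72 in PRODH TAC against vector TAC.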

How the data were processed

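Heart RNA of 12 mice was isolated in TRIzol, DNase-treated and put through a SMARTER mRNA library kit, per the labels' protocols. The aligner, counter, build and annotation were not given in the sources used here. Deposited signal values are read counts scaled by a size factor: every value is a whole multiple of the step of its column, and division by the step gave whole reads for 100% of values (tolerance 0.01). The step was 0.993 for PRODH TAC replicate 1. The deposited baseMean column equals the mean of the 12 libraries.

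The main test was limma 3.58.1 in R 4.3.3 with a trended prior on log2(value + 1), for genes that reached 1 in 3 or more libraries, with all 12 libraries in 1 fit and Benjamini-Hochberg adjustment. It was tested on simulated data. The 1 added before the logarithm understates changes of genes with few reads. Alternatives were a pseudocount of 0.1, other filters and scalings, the 2 groups alone, a replicate block, the recovered reads in DESeq2 1.42.0, edgeR 4.0.16 and limma voom, and leaving out libraries. Shares came from levels per kilobase of exon (GENCODE M21, matched by identifier for 24735 genes).

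The members, gene lists, markers and alternatives were chosen with earlier results of these data known. Named were all 10 members, Prodh, up to 4 called genes per list and comparison, those called in both comparisons of the aims, and the 5 nearest profiles of members called at least 2 times. A gene that this rule names among the nearest profiles of Nmrk2 is not reported here. The labels do not say what a replicate number marks. In the main test p-values set a group difference against the spread between libraries within groups, shared by all 4 groups. Replicates differed by more than counting noise (chi-square per degree of freedom 4.37 to 87.22), so each counted as 1 sample. A permutation of 3 against 3 cannot go below p = 0.1. Counts of reads carry counting error only.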

Additional observations from a re-analysis of the deposited data

How the results depend on the processing

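Both calls of Nmrk2 and both of Nadk2 in the comparisons of the aims held in all 24 alternatives. In vector TAC against vector sham hearts the count of 4 called members was 2 in a fit of the 2 groups alone, where Nampt (-0.77, adjusted p = 0.0636) and Nmnat3 (-0.7, adjusted p = 0.0841) missed the threshold in limma, and 6 with vector TAC replicate 1 and also PRODH sham replicate 2 left out. Leaving out 1 library gave 2 to 6. DESeq2 added Naprt (-0.42, adjusted p = 0.0375). In PRODH TAC against vector TAC hearts the count of 2 became 4 without both libraries and 2 to 4 without 1. In PRODH TAC against PRODH sham hearts the count of 0 became 1 with DESeq2, 2 in the 2 groups alone, 2 without both libraries and 0 to 1 without 1 library. For the difference of the responses it became 1 with DESeq2, 1 without both and 0 to 2 without 1.

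With the replicate number as a replicate block the counts were 4, 2, 0, 0 and 0, as without it. Pairs of libraries with the same number had correlations of their deviations from -0.13 to 0.51, with 5 of 18 above 0.1. Pairs with other numbers had -0.65 to 0.64, with 5 of 36 above 0.1. With 3 libraries per group these correlations cannot decide whether libraries of the same number were paired.

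Directions turned only in differences that passed in no alternative. Leaving out 1 library gave -0.69 to 0.3 for Nnt in vector TAC against vector sham hearts. In PRODH sham against vector sham hearts it gave -0.04 to 0.14 for Nmrk1, -0.16 to 0.01 for Nmnat1, -0.02 to 0.15 for Naprt, -0.19 to 0.03 for Nadk and -0.53 to 0.45 for Nnt. In PRODH TAC against PRODH sham hearts it gave -0.14 to 0.03 for Nmnat1 and -0.17 to 0.87 for Nmnat2. For the difference of the responses it gave -0.0034 to 0.17 for Nmrk1, -0.73 to 0.31 for Nmnat2 and -0.06 to 0.92 for Nnt. Without both libraries Nmrk1 (-0.04) and Nmnat1 (0.01) turned between the sham groups and Nmnat2 (-0.17) between the PRODH groups, and with edgeR and DESeq2 Nnt (-0.1 each) turned between the sham groups. The cause was not tested. Nmnat2 has no value under the stricter filter of at least 10 normalized reads in 3 libraries, since it did not reach it. Nmnat2 and Nnt, with 1 to 14 and 6 to 23 reads per library, are limited by depth.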
